A study of Bos taurus with 15 samples.

Results

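The genes described here encode the desmosome, and they were taken by symbol from gene counts of pooled bovine blastocysts. They are desmoplakin (DSP, gene 514360), desmocollin 2 (DSC2, gene 281128), desmocollin 3 (DSC3, gene 281129), desmoglein 2 (DSG2, gene 508151), plakoglobin (JUP, gene 445543), plakophilin 2 (PKP2, gene 537784), plakophilin 3 (PKP3, gene 516247), plakophilin 4 (PKP4, gene 281406) and PERP (gene 509485). All 9 were among the 34773 genes counted, and 8 of them were among the 10832 genes that the authors kept after a filter on low counts. DSC3 was not kept and could be read only from the unfiltered counts.

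Desmosomes are spot-like junctions that hold neighbouring epithelial cells together and anchor their keratin filaments. Desmocollins and desmogleins are cadherins that cross the gap between the cells, plakoglobin and the plakophilins bind their tails inside the cell, and desmoplakin ties this plaque to the keratins. In the blastocyst they form in the trophectoderm, the outer epithelium that encloses the fluid-filled cavity and gives rise to the placenta, whereas the inner cell mass gives rise to the epiblast and the hypoblast.

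The libraries came from in vitro produced Bos taurus embryos, labelled as day 7 blastocysts, in pools of 8 to 14 embryos. Control embryos (Co) were cultured without supplementation, FeEV-treated embryos with fresh extracellular vesicles from the oviduct (oEVs), and FoEV-treated embryos with oEVs that had been frozen and thawed. Both kinds of oEVs were obtained from oviducts of postovulatory cows and were portions of the same collections. Each treatment had 5 libraries, 15 in all, each made from 1 ng of total RNA, and these were the pools with the best RNA quality among 6 Co, 7 FeEV and 8 FoEV pools. The labels do not give which bulls, oocyte batches or culture days the pools came from, so the p-values measure the spread between these pools. Whole blastocysts were used, so no library held trophectoderm alone, and fewer trophectoderm cells cannot be told apart from less RNA per cell.

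The total of the gene counts was 2571558 to 2977004 in a Co library, 2136713 to 3808602 in a FeEV library and 3392613 to 4058887 in a FoEV library. Every FoEV library thus held more counts than every Co library. Of the counts on the kept genes, 15.7% to 28.5% fell on ribosomal RNA genes. Levels are given as CPM (counts per 1000000 counts of the library, whose size was scaled by the trimmed mean of M values, TMM). Of 9 trophectoderm markers, GATA3 had 194 to 256 CPM and KRT8 3613 to 5997 CPM. TFAP2A, of the same list, had 20 to 110 reads per library, and IFNT2 had 0 to 41 reads, with 0 in 1 library. Of 4 oviduct epithelium markers, the oviduct secretory gene OVGP1 had 0 to 6 reads and the cilia gene FOXJ1 0 to 4 reads per library. The other members of that list, PAX8 and MSX1, had 12 to 46 and 4 to 52 reads. Of 6 cumulus cell markers, PTX3 had 1 read over all 15 libraries together, whereas FSHR had 14 to 43 reads per library. Of 4 blood markers the globin gene HBB had 0 reads, whereas CD68 had 5 to 22 per library. The summed levels over these lists ran from 7.06 to 25.3 CPM for oviduct epithelium, from 6.31 to 16.0 for cumulus cells and from 2.26 to 5.87 for blood.

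Together the desmosome genes took 0.262% to 0.391% of the reads counted in a library. Their summed level was 3215 ± 278 (Co), 3340 ± 508 (FeEV) and 3343 ± 366 CPM (FoEV), as mean ± SD of n = 5 libraries. The treatment means lay within 1 SD of each other. The values of the single genes in each library are plotted by treatment.

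**Figure D1:**
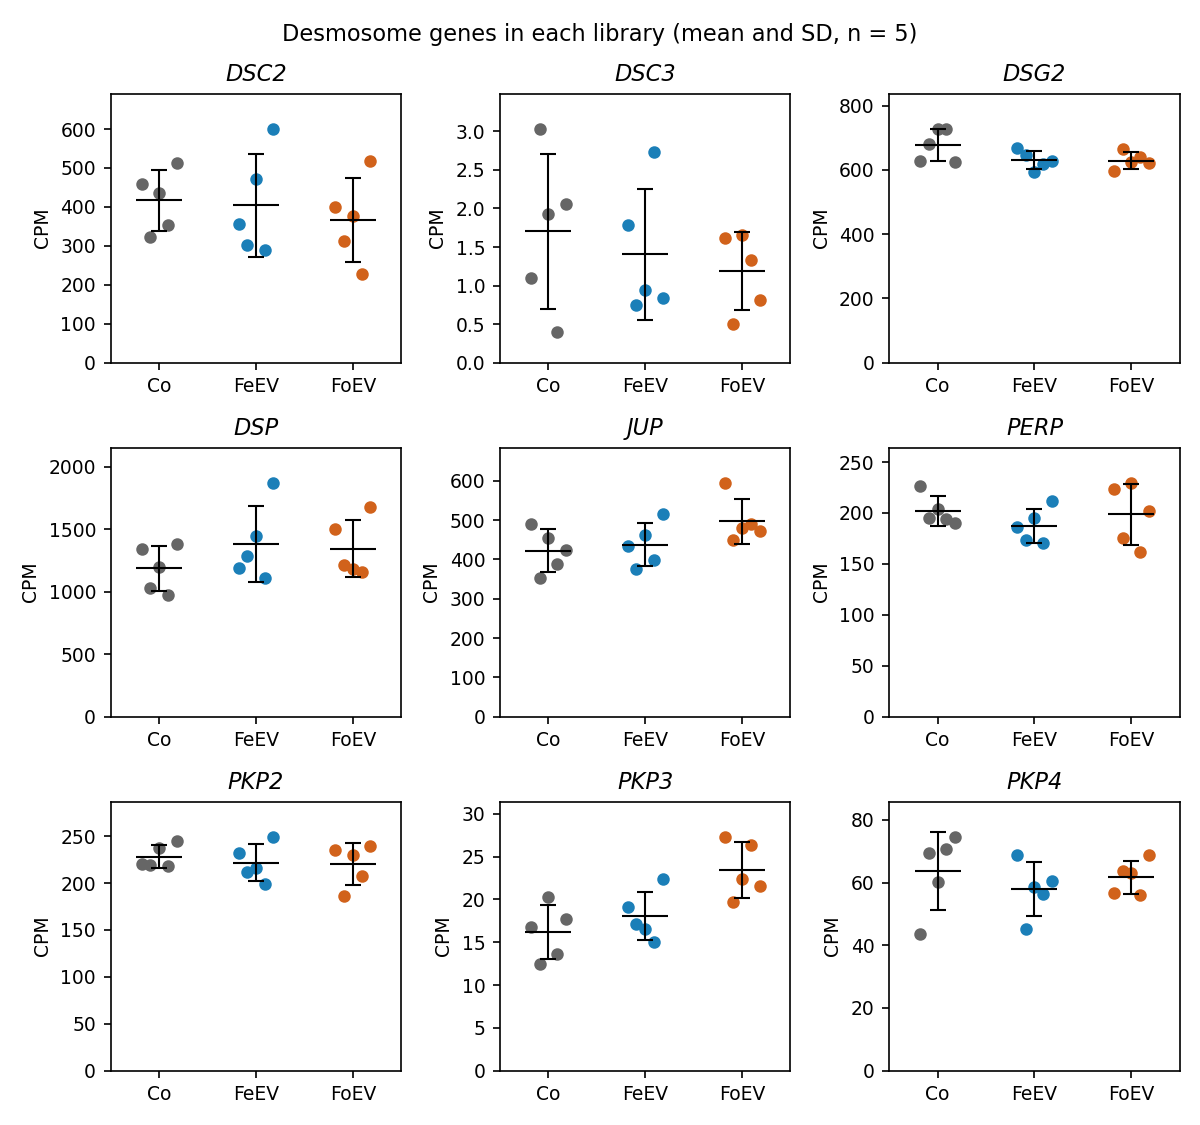
Level of each desmosome gene in CPM (vertical axes, each starting at 0) in the 5 libraries of Co, FeEV and FoEV (horizontal axis), with 1 point per library, and the mean and SD in black. The treatments overlap in all 9 genes, FoEV-treated embryos have the highest mean of PKP3 and of JUP, and DSC3 stays between 0.401 and 3.04 CPM.

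Of the desmosomal cadherins, DSG2 was the steadiest gene. It had 628, 681, 729, 726 and 624 CPM in Co replicates 1 to 5, 668, 647, 594, 619 and 627 CPM in FeEV replicates 1 to 5, and 595, 664, 625, 640 and 621 CPM in FoEV replicates 1 to 5. The highest of the 15 libraries was 1.23 times the lowest. The Co mean, 677 ± 50.8 CPM, was above those of FeEV, 631 ± 28.1, and FoEV, 629 ± 25.2 (SD, n = 5), while the ranges overlapped. The log2 fold changes were -0.11 (SE, the standard error, 0.07, edgeR quasi-likelihood test, adjusted p = 0.506) for FoEV treatment vs. Co and -0.10 (SE 0.07, edgeR adjusted p = 1.00) for FeEV treatment vs. Co.

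DSC2, the desmocollin found together with DSG2 in simple epithelia, was the most variable of the 8 kept genes among the 9 named at the start. It had 459, 323, 435, 353 and 513 CPM in Co replicates 1 to 5, 356, 303, 471, 289 and 601 CPM in FeEV replicates 1 to 5, and 400, 314, 377, 227 and 517 CPM in FoEV replicates 1 to 5. Each treatment held libraries on both sides of 400 CPM, the highest library was 2.64 times the lowest, and the fifth library of each treatment was its highest. The levels were 417 ± 77.9 (Co), 404 ± 132 (FeEV) and 367 ± 107 CPM (FoEV), as mean ± SD of n = 5 libraries. The difference between FoEV treatment and Co was -0.18 on the log2 scale, with a 95% interval from -0.64 to 0.28 (edgeR adjusted p = 0.750). It stayed negative in each of 25 other fits, at -0.05 without FoEV replicate 4 and -0.34 without FoEV replicate 5, and with the replicate number as a block it was -0.21 (SE 0.10, edgeR unadjusted p = 0.0388 and adjusted p = 0.257). With the number ending the sample description as a block instead, the unadjusted edgeR p was not under 0.05.

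Since levels of different genes cannot be compared without their transcript lengths, the pair of cadherins was read as reads of DSC2 per read of DSG2 within a library. This ratio ran from 0.355 in FoEV replicate 4 to 0.959 in FeEV replicate 5. It was 0.622 ± 0.152 (Co), 0.644 ± 0.222 (FeEV) and 0.587 ± 0.184 (FoEV), as mean ± SD of n = 5 libraries. Pools of the same treatment thus differed more in the ratio than the treatments did.

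DSC3, a desmocollin best known from stratified epithelia, was near the limit of detection. It had 3, 9, 6, 1 and 5 reads in Co replicates 1 to 5, 6, 2, 3, 6 and 3 reads in FeEV replicates 1 to 5, and 7, 2, 6, 4 and 3 reads in FoEV replicates 1 to 5, 66 reads in all. A floor of 3 counts corresponds to 0.695 to 1.37 CPM in these libraries, and Co replicate 4 with 1 read and FeEV replicate 2 and FoEV replicate 2 with 2 reads each lay below it. In a fit of the unfiltered counts its log2 fold change for FoEV treatment vs. Co was -0.54 (SE 0.57, edgeR adjusted p = 0.688), and a difference was not detectable at this depth.

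In a later bovine annotation than the one used for counting, the 7 desmocollin and desmoglein genes stand in 1 cluster on a single chromosome, in the order DSG2, DSG3, DSG4, DSG1, DSC1, DSC2 and DSC3. Within it, DSG2 and DSC2 were joined by DSG3, a desmoglein of stratified epithelia, with 125.7 ± 21.8 (Co), 125.5 ± 26.4 (FeEV) and 122.9 ± 35.8 CPM (FoEV), as mean ± SD of n = 5 libraries. DSG1, DSG4 and DSC1, the genes of skin desmosomes, had 0 to 1, 0 to 3 and 0 to 9 reads per library. Reads of these 3 genes were at 0 in 14, 12 and 3 of the 15 libraries. No other annotated gene overlaps DSG2, DSC2, DSC3, PKP3 or PERP in that annotation.

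DSP, the plakin that links the plaque to keratin filaments, had the most reads of the 9 genes in every library. It had 1339, 1032, 1202, 976 and 1384 CPM in Co replicates 1 to 5, 1193, 1283, 1446, 1112 and 1873 CPM in FeEV replicates 1 to 5, and 1501, 1213, 1180, 1157 and 1674 CPM in FoEV replicates 1 to 5. Of the FeEV libraries 2 were above every Co library, as were 2 of the FoEV libraries, and the fifth library of each treatment was again its highest. The levels were 1186 ± 181 (Co), 1382 ± 301 (FeEV) and 1345 ± 231 CPM (FoEV), as mean ± SD of n = 5 libraries. The log2 fold changes were 0.22 (95% interval -0.06 to 0.50, edgeR adjusted p = 1.00) for FeEV treatment vs. Co and 0.18 (95% interval -0.10 to 0.46, edgeR adjusted p = 0.565) for FoEV treatment vs. Co. Without 1 library they ran from 0.086 (without FeEV replicate 5) to 0.29 and from 0.090 (without FoEV replicate 5) to 0.24. An snRNA gene and a tRNA gene overlap DSP in the later annotation, and they had 0 to 5 reads and 0 reads per library.

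JUP encodes plakoglobin, a catenin that binds both desmosomal cadherins and classical cadherins. It had 490, 354, 455, 389 and 424 CPM in Co replicates 1 to 5, 434, 375, 461, 399 and 516 CPM in FeEV replicates 1 to 5, and 595, 448, 479, 491 and 472 CPM in FoEV replicates 1 to 5. FoEV had the highest mean, but 2 of its 5 libraries exceeded every Co library and FoEV replicate 1 stood well above the other 4. The levels were 422 ± 53.7 (Co), 437 ± 55.0 (FeEV) and 497 ± 56.9 CPM (FoEV), as mean ± SD of n = 5 libraries. The log2 fold change for FoEV treatment vs. Co was 0.23 (SE 0.10, edgeR unadjusted p = 0.0341 and adjusted p = 0.286), which did not pass the test. Without FoEV replicate 1, Co replicate 2 or Co replicate 4 it was 0.16, 0.18 and 0.21, and the unadjusted edgeR p was then 0.133, 0.106 and 0.0790.

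PKP3, a plakophilin of the desmosomal plaque found in most epithelia, had the smallest edgeR p of the 8 tested genes. It had 16.8, 12.5, 20.3, 13.6 and 17.6 CPM in Co replicates 1 to 5, 19.1, 17.1, 16.6, 15.0 and 22.3 CPM in FeEV replicates 1 to 5, and 27.3, 19.7, 22.3, 26.4 and 21.5 CPM in FoEV replicates 1 to 5. Of the FoEV libraries 4 were above every Co library, and only FoEV replicate 2 lay below the highest Co library. The gene was read from 34 to 63 counts in Co, 33 to 80 in FeEV and 78 to 118 in FoEV. The levels were 16.2 ± 3.15 (Co), 18.0 ± 2.82 (FeEV) and 23.4 ± 3.27 CPM (FoEV), as mean ± SD of n = 5 libraries.

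For FoEV treatment vs. Co the log2 fold change of PKP3 was 0.53 (SE 0.16, 95% interval 0.21 to 0.85), with an unadjusted edgeR p of 0.00331 and an adjusted p of 0.148. It did not pass the test over all genes. For FoEV vs. FeEV treatment it was 0.37 (SE 0.16, edgeR unadjusted p = 0.0300 and adjusted p = 0.552), and for FeEV treatment vs. Co 0.16 (SE 0.17, edgeR adjusted p = 1.00). The comparisons share libraries, so these values are not independent of each other. Over the other fits of all libraries or of the compared treatments, the log2 fold change for FoEV treatment vs. Co ran from 0.47 to 0.53 and its adjusted p from 0.0509 to 0.294, and DESeq2 gave no adjusted p for it. Without 1 library the adjusted p ran from 0.0851 to 0.338 in the edgeR test.

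PKP2, the plakophilin typical of simple epithelia and heart muscle, differed little between libraries. It had 220, 220, 238, 218 and 245 CPM in Co replicates 1 to 5, 232, 212, 216, 199 and 249 CPM in FeEV replicates 1 to 5, and 235, 187, 230, 208 and 240 CPM in FoEV replicates 1 to 5. The ranges of the treatments overlapped, and the highest library was 1.34 times the lowest. Its log2 fold change for FoEV treatment vs. Co was -0.05, with a 95% interval from -0.22 to 0.12 (edgeR adjusted p = 0.810).

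PKP4, a relative of the catenin p120 found at desmosomes and adherens junctions, had 43.8, 69.5, 60.3, 70.6 and 74.7 CPM in Co replicates 1 to 5. It had 68.8, 45.3, 58.5, 56.5 and 60.6 CPM in FeEV replicates 1 to 5, and 56.7, 63.8, 63.1, 56.1 and 68.7 CPM in FoEV replicates 1 to 5. The lowest and the highest of the 15 libraries were both Co libraries. The log2 fold change was -0.05 for FoEV treatment vs. Co (edgeR adjusted p = 0.897) and -0.13 for FeEV treatment vs. Co (edgeR adjusted p = 1.00).

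PERP, a membrane protein needed for stable desmosomes in stratified epithelia, had 226, 195, 204, 194 and 190 CPM in Co replicates 1 to 5. It had 186, 173, 195, 170 and 211 CPM in FeEV replicates 1 to 5, and 223, 176, 230, 162 and 202 CPM in FoEV replicates 1 to 5. FoEV replicates 3 and 4 were the highest and the lowest of all 15 libraries. The log2 fold change was -0.02 for FoEV treatment vs. Co (edgeR adjusted p = 0.936) and -0.11 for FeEV treatment vs. Co (edgeR adjusted p = 1.00).

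Taken by comparison, 0 of the 8 tested desmosome genes had an edgeR adjusted p under 0.05 for FoEV treatment vs. Co, where 0.00923% of all genes were called (1 of 10832). At an unadjusted edgeR p under 0.05, JUP and PKP3 passed, 2 of 8 genes, both higher in FoEV, where 15.1% of all genes passed, 8.18% with a higher and 6.88% with a lower level in FoEV. The log2 fold changes were positive for 3 genes (DSP, JUP and PKP3) and negative for 5, with a median of -0.03 against 0.01 over all genes. In 0 of 8 genes were the treatments free of overlap, against 2.60% of all genes.

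For FeEV treatment vs. Co, 0 of 8 desmosome genes had an adjusted p under 0.05 in the edgeR test, as did 0.00% of all genes. At an unadjusted edgeR p under 0.05, 0 of 8 passed, where 4.15% of all genes did, 1.83% higher and 2.32% lower in FeEV, and with DESeq2 also 0 of 8. The same 3 genes as before had positive log2 fold changes, with a median over the 8 genes of -0.04. In 0 of 8 genes were the treatments free of overlap, against 0.951% of all genes.

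For FoEV vs. FeEV treatment, 0 of 8 desmosome genes had an adjusted p under 0.05 in the edgeR test, as did 0.00% of all genes. PKP3 alone passed at an unadjusted edgeR p under 0.05, 1 of 8 genes, where 8.52% of all genes passed, 4.83% higher and 3.69% lower in FoEV. The median log2 fold change was 0.04, with 4 genes higher and 4 lower in FoEV, and overlap was absent in 0 of 8 genes against 1.50% of all genes. The largest interval was that of DSC2, from -0.60 to 0.32 on the log2 scale, and the smallest that of DSG2, from -0.15 to 0.14.

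**Figure D2:**
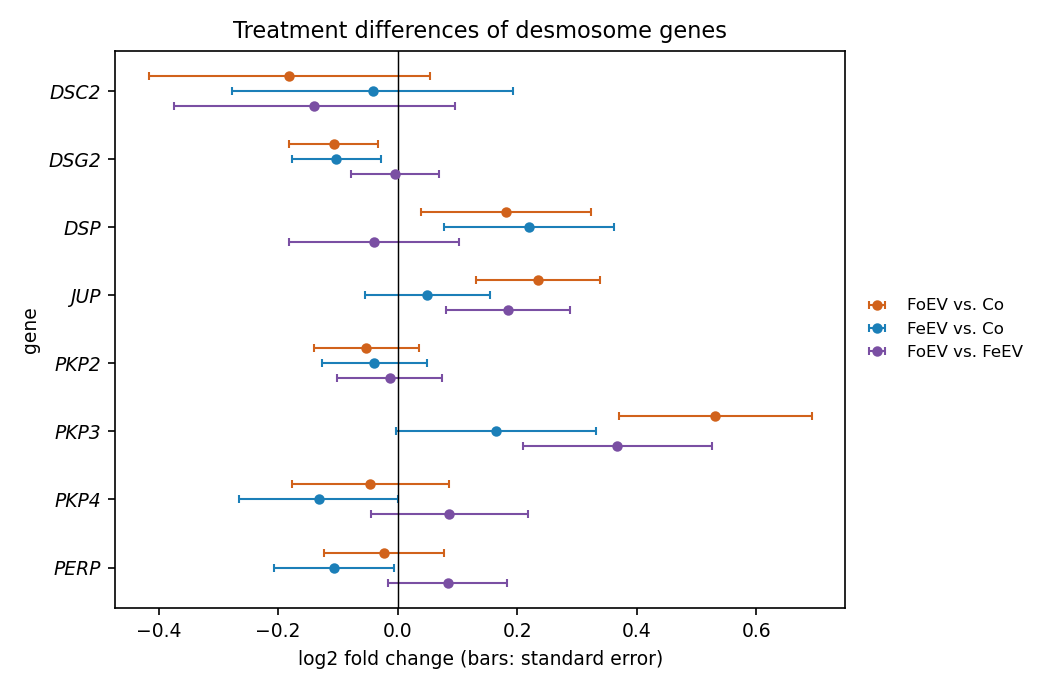
Log2 fold change (horizontal axis) of the 8 tested desmosome genes (vertical axis) in the 3 comparisons of treatments, coloured by comparison, with the standard error as bars. PKP3 at 0.53 for FoEV treatment vs. Co is the farthest from 0, and DSC2 has the widest bars, with a standard error of 0.24 in that comparison.

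The spread between pools of the same treatment differed among the desmosome genes. It was measured as the standard deviation of log2 CPM around the treatment means and set against the 500 genes nearest in mean level. DSC2 had a spread of 0.40, against a median of 0.16 in genes of like level, and exceeded 98% of them. DSP had 0.25 and exceeded 88% of such genes. DSG2 was at the other end, with a spread of 0.08 that exceeded 4% of genes of like level, as the adherens junction cadherin CDH1 did with 0.08 and 4.4%.

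The plaque genes lay between these ends. PKP4 had a spread of 0.23, above 74.4% of genes of like level, and JUP had 0.17, above 63.6%. PERP with 0.16 (50.6%), PKP3 with 0.23 (25.2%) and PKP2 with 0.12 (23.8%) were as steady as or steadier than most genes of their level. Of the 5 other desmosome genes tested, EVPL with 0.57, PKP1 with 0.54 and DSG3 with 0.34 exceeded 96.2%, 97.8% and 97.2% of genes of like level, PPL with 0.31 exceeded 84.2%, and KAZN with 0.21 exceeded 46.2%.

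The same genes were then followed across the 15 libraries, with the treatment means removed from log2 CPM. Among the 28 pairs of the 8 tested genes, Pearson's r was positive in 18 and negative in 10, from -0.53 to 0.89 with a median of 0.35. The p-values come from 100000 permutations within treatments and were adjusted over the 28 pairs. The permutations, here and for the marker sums below, treat the libraries of a treatment as independent of those of the others. An adjusted permutation p under 0.05 was reached in 7 pairs, and r was positive in all 7 of them. The share of pairs of all kept genes that would pass was not computed.

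DSP and DSC2 varied together most. Their r was 0.889 (permutation p = 2e-05, adjusted p = 0.00056) and Spearman's rho was 0.889 (permutation p = 0.0001, adjusted p = 0.0028), over n = 15 libraries. In every treatment, however, both genes lay below the treatment mean in replicates 2 and 4 and above it in replicate 5. The labels do not say whether a replicate number marks related pools, in which case these p-values would be too small. The number ending each sample description is a different numbering, in which replicate 5 was 6 in Co and 7 in FeEV and FoEV. In each treatment the 2 libraries with the highest DSP level were also the 2 with the highest DSC2 level, and FeEV replicate 5 had the highest level of both. Without the 2 libraries farthest from the median of DSP, r was 0.789 and the adjusted permutation p was 0.12, above the threshold. Fewer libraries over a narrower range also lower the power of the test, which was not told apart from a dependence on those libraries. With each library left out in turn, r ran from 0.846 to 0.930 and the adjusted permutation p from 0.0014 to 0.0224. Among all 10831 other kept genes, DSC2 ranked 17th by r with DSP, and 127 genes (1.17%) had an r above 0.8.

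**Figure D3:**
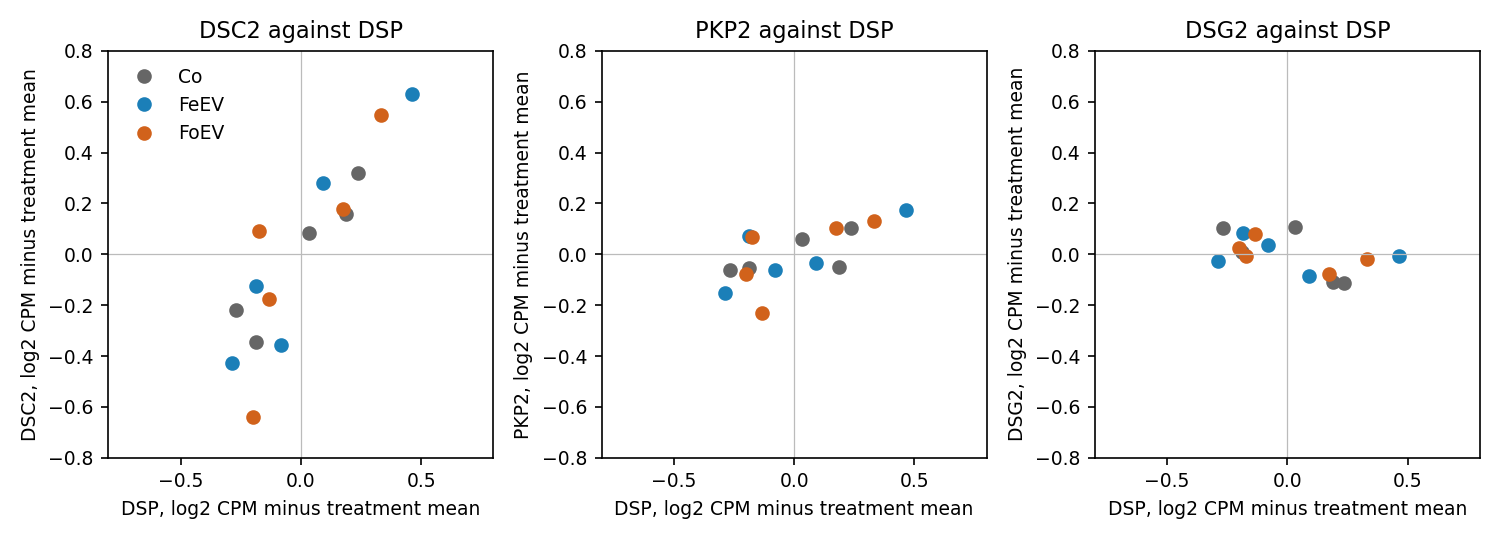
Log2 CPM of DSC2, PKP2 and DSG2 (vertical axes) against that of DSP (horizontal axes), each as the difference from the mean of its treatment, with 1 point per library coloured by treatment. DSC2 climbs with DSP (r = 0.889) over a range of 0.63 above to 0.64 below its treatment mean, PKP2 does so over a narrower range (r = 0.677), and DSG2 stays between -0.11 and 0.11 of its mean (r = -0.53).

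JUP and PKP3 formed the other close pair, with r = 0.786 (permutation p = 0.00219, adjusted p = 0.0307) and rho = 0.814 (adjusted permutation p = 0.00868), n = 15. Without the 2 farthest libraries r was 0.688. PKP2 varied with DSC2 (r = 0.733, rho = 0.846), with DSP (r = 0.677, rho = 0.750) and with PKP3 (r = 0.636, rho = 0.561), each with an adjusted permutation p of 0.0490 for r. PERP varied with DSC2 (r = 0.723, rho = 0.707) and with JUP (r = 0.631, rho = 0.625), also at an adjusted permutation p of 0.0490. For rho, the adjusted permutation p was 0.00854 for PKP2 with DSC2 and 0.0227 for PKP2 with DSP, whereas PKP2 with PKP3 (0.0933) and PERP with DSC2 and JUP (0.0600 each) did not pass. Without the 2 libraries farthest from the median of 1 gene of the pair, r was between 0.430 and 0.664 in these 5 pairs, and with those libraries left out 0 of the 28 pairs passed the threshold.

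DSG2 and PKP4 did not follow the others. DSG2 had a negative r with DSP (-0.53, adjusted permutation p = 0.110), with DSC2 (-0.44, adjusted permutation p = 0.155), with JUP (-0.43), with PERP (-0.38), with PKP2 (-0.24) and with PKP3 (-0.11), and a positive one with PKP4 (0.24). None of these passed the permutation test (0 of 7). By r with DSP, DSG2 ranked 9779th of 10831 genes. The r of PKP4 with the other 7 genes lay between -0.26 and 0.28.

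Marker sums and the library size were set against each of the 8 genes. By r, the trophectoderm sum passed the permutation test with 5 of them, the hypoblast sum with 3, the epiblast sum with 0 and the total counts with 3, while DSG2, PKP3 and PKP4 passed with none of these. The share of all kept genes that would pass with the same sums was not computed, so these counts have no background. The summed CPM of the 9 trophectoderm markers was 7576 ± 917 (Co), 8691 ± 1393 (FeEV) and 9732 ± 1112 (FoEV), as mean ± SD of n = 5 libraries, with ranges of 6464 to 8710, 7054 to 10515 and 8367 to 11293. Over the 15 libraries with treatment means removed, and with p-values adjusted over 56 relations, it varied with JUP (r = 0.835, rho = 0.896), DSC2 (r = 0.813, rho = 0.829) and DSP (r = 0.796, rho = 0.754), each with an adjusted permutation p of 0.0229 for r. PKP2 (r = 0.721) and PERP (r = 0.672) also passed, at adjusted permutation p = 0.0283 and 0.0310. Spearman's rho passed in the same 5 genes, with an adjusted permutation p from 0.0112 for JUP to 0.0366 for DSP and PERP. Without the 2 libraries farthest from the median of the gene, r was 0.733 for JUP, 0.811 for DSC2, 0.795 for DSP, 0.548 for PKP2 and 0.763 for PERP. DSG2 had r = -0.66 (adjusted permutation p = 0.0522).

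KRT8 and KRT18 made up 90.5% to 93.7% of that sum. With the 6 transcription factors of the list alone (CDX2, GATA2, GATA3, TFAP2A, TFAP2C and TEAD4), r ran from -0.46 to 0.56 and 0 of 8 genes passed the permutation test. The sum of the 7 hypoblast markers was 7672 ± 1213 (Co), 7010 ± 1074 (FeEV) and 6358 ± 1160 CPM (FoEV), as mean ± SD of n = 5 libraries, of which FN1 made up 85.4% to 89.6%. DSP (r = -0.81), JUP (r = -0.76) and DSC2 (r = -0.76) varied opposite to it, each with an adjusted permutation p of 0.0229. Their rho was -0.75, -0.70 and -0.67 (adjusted permutation p = 0.0366, 0.0389 and 0.0413), and r without the 2 farthest libraries was -0.87, -0.66 and -0.79. Without FN1, DSP (r = -0.74) and DSC2 (r = -0.68) still passed. The 4 epiblast markers summed to 285 ± 29.9, 267 ± 26.0 and 276 ± 46.3 CPM in Co, FeEV and FoEV, and r was negative with all 8 genes while 0 passed.

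The log2 of the total counts varied with DSP (r = 0.717, adjusted permutation p = 0.0310), DSC2 (r = 0.703, adjusted permutation p = 0.0229) and PERP (r = 0.596, adjusted permutation p = 0.0229). Their rho was 0.714, 0.746 and 0.679 (adjusted permutation p = 0.0366, 0.0366 and 0.0389), and r without the 2 farthest libraries was 0.604, 0.495 and 0.670. JUP and PKP2 passed by rho (0.761 and 0.721, adjusted permutation p = 0.0366 for each) and not by r. With counts thinned to the smallest total, the r of DSP and DSC2 was 0.902. The share of ribosomal RNA passed with 0 of 8 genes, with r from -0.35 to 0.20. The part of cell type composition and of library size in the variation shared by the desmosome genes was not tested.

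**Figure D4:**
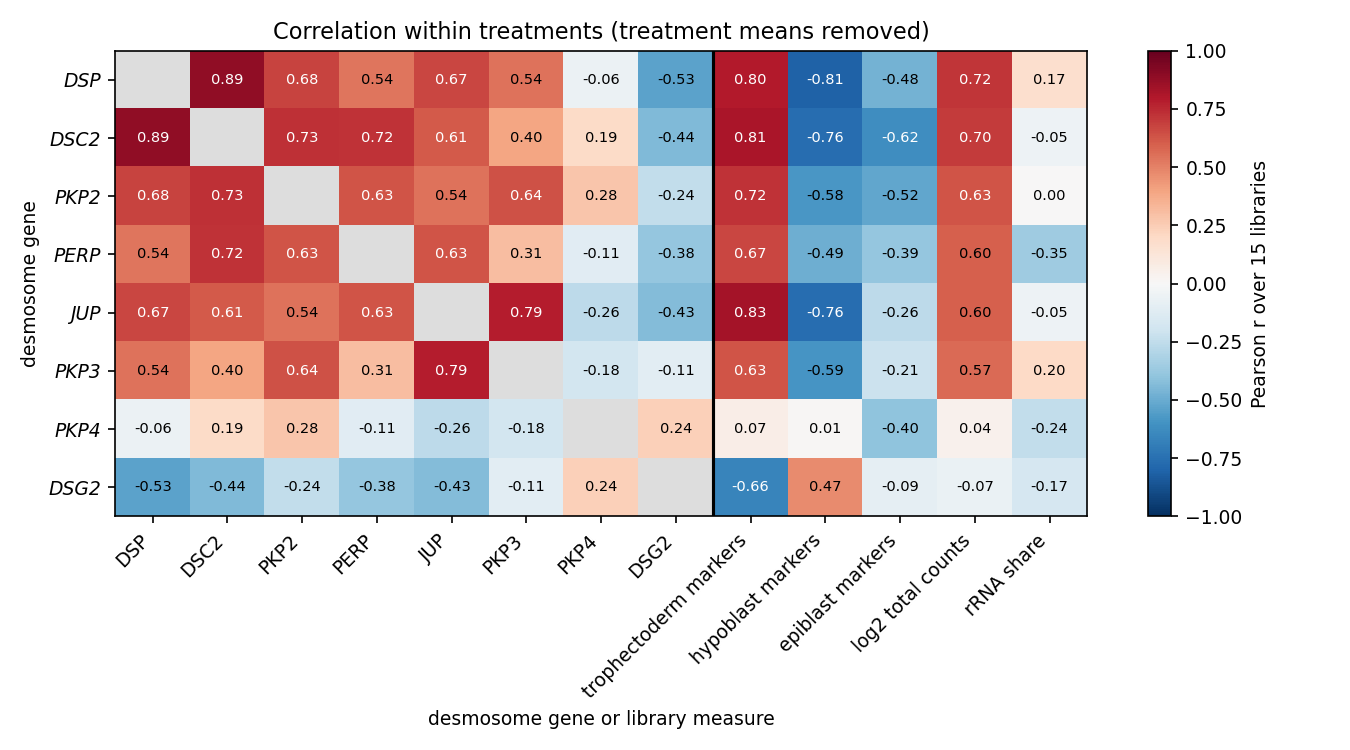
Pearson's r over the 15 libraries, with treatment means removed, between each of the 8 tested desmosome genes (vertical axis) and the others, the summed markers of 3 cell types, the log2 total counts and the ribosomal RNA share (horizontal axis), coloured from blue at -1 to red at 1. DSP, DSC2, PKP2, PERP, JUP and PKP3 form a block of positive values, DSG2 is negative with each of them, and the trophectoderm and hypoblast columns have opposite signs in those genes.

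The partners of the desmosome were read from the same fit. Of 10 other desmosome genes, 5 were tested (DSG3, PKP1, and the plaque-associated PPL, EVPL and KAZN), with 0 called in each comparison and 0 at an unadjusted edgeR p under 0.05. Their median log2 fold change was 0.05 for FoEV treatment vs. Co, with 4 higher and 1 lower. Of the 5 not tested, DSC1, DSG1 and DSG4 are given above, CDSN had 3 to 24 and TMEM47 1 to 12 reads per library.

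Of the 7 keratins and plakins that desmosomes connect to, all 7 had a positive log2 fold change for FoEV treatment vs. Co, with a median of 0.09 against 0.01 over all genes, and 0 had an adjusted p under 0.05 in the edgeR test. The keratins KRT18 and KRT8, the filament pair of simple epithelia that DSP binds, were the 2 of 7 with an unadjusted edgeR p under 0.05, where 15.1% of all genes passed and 8.18% were higher in FoEV. KRT18 had 2932, 2367, 2645, 2247 and 3231 CPM in Co replicates 1 to 5, and 4587, 3161, 4101, 3786 and 4012 CPM in FoEV replicates 1 to 5. All FoEV libraries but replicate 2 were above every Co library. The log2 fold change was 0.55 (SE 0.13, edgeR unadjusted p = 0.000347 and adjusted p = 0.0818), close to that of PKP3. KRT8 had 4266 ± 505 CPM in Co and 5088 ± 622 in FoEV (SD, n = 5), a log2 fold change of 0.25 (SE 0.11, edgeR adjusted p = 0.289).

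The study lists KRT18 among its genes upregulated in FoEV-treated embryos compared with Co. In the other tests the call of KRT18 for FoEV treatment vs. Co differed. Its adjusted p was 0.00849 with DESeq2, 0.00379 with the robust dispersion and likelihood ratio test of edgeR that the methods name, and 0.194 with the number in the sample descriptions as a factor. Over all other fits it ran from 5.72e-06 with the unfiltered counts to 0.272 without Co replicate 4, and without FoEV replicate 2 it was 0.0410. KRT7, a keratin of simple epithelia, had 47.7 ± 9.42 (Co), 36.2 ± 4.67 (FeEV) and 49.8 ± 7.17 CPM (FoEV), as mean ± SD of n = 5 libraries. Its log2 fold change was 0.46 for FoEV vs. FeEV treatment (SE 0.14, edgeR unadjusted p = 0.00319 and adjusted p = 0.453) and -0.39 for FeEV treatment vs. Co (SE 0.14, edgeR adjusted p = 1.00). KRT19 had the widest spread of these partners, with 187 to 616 CPM.

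**Figure D5:**
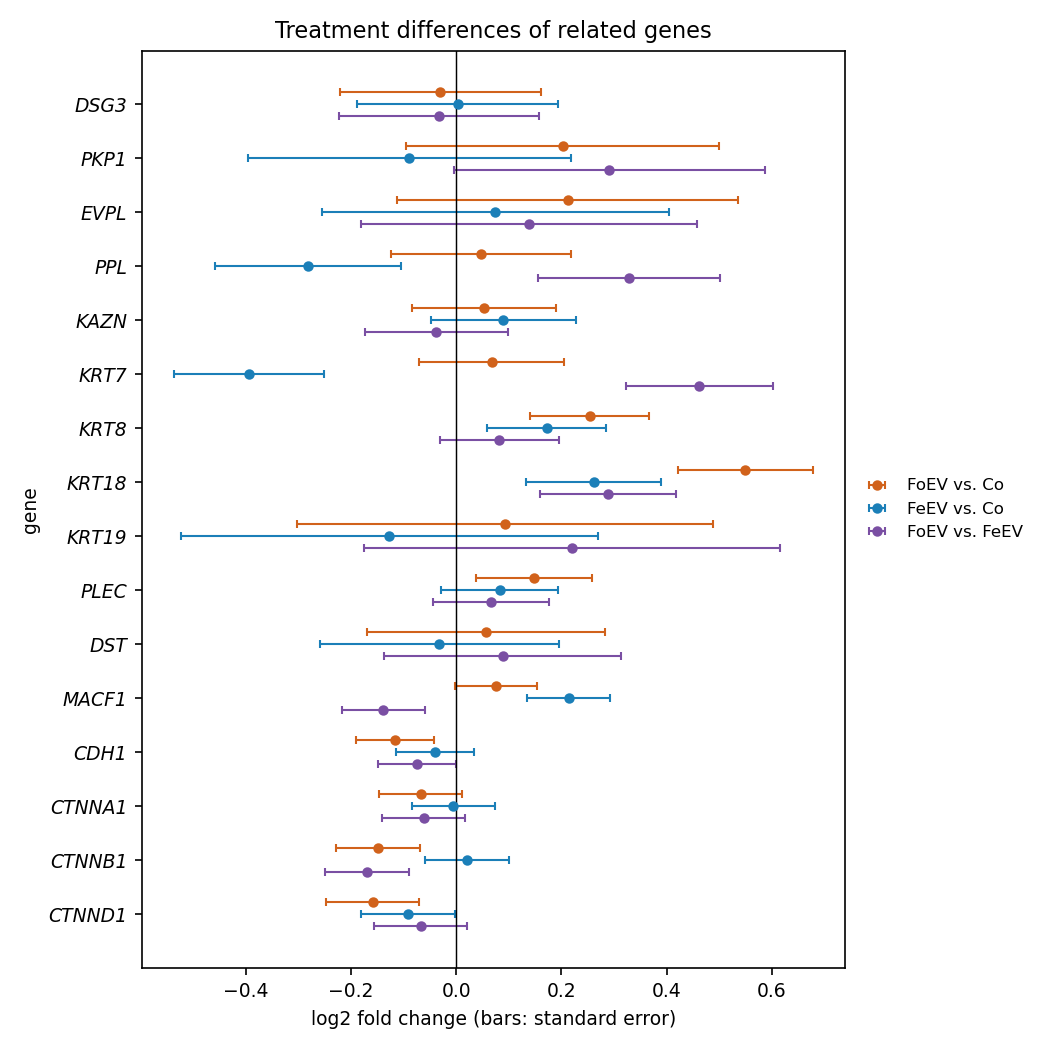
Log2 fold change (horizontal axis, bars for the standard error) of other desmosome genes, keratins and plakins, and adherens junction genes (vertical axis) in the 3 comparisons. KRT18 at 0.55 for FoEV treatment vs. Co is the farthest from 0, and the 4 adherens junction genes lie below 0 in that comparison.

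The adherens junction, the other cadherin junction of the trophectoderm, shares JUP with the desmosome. Of its 5 listed genes 4 were tested (CDH1, CTNNA1, CTNNB1 and CTNND1). All 4 had a negative log2 fold change for FoEV treatment vs. Co, as had 5167 of all 10832 genes. Their median was -0.13, and 0 passed at an adjusted or unadjusted edgeR p under 0.05. All 4 were also lower in FoEV than in FeEV. There CTNNB1 alone passed unadjusted (log2 fold change -0.17, SE 0.08, edgeR unadjusted p = 0.0447 and adjusted p = 0.577), where 8.52% of all genes did. For FeEV treatment vs. Co 1 was higher and 3 lower, and 0 passed. CDH1, the E-cadherin gene, had between 866 and 1085 CPM in the 15 libraries. JUP and its close relative CTNNB1 thus had log2 fold changes of opposite sign in FoEV treatment vs. Co, and the difference between them was not tested.

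Of the marker lists, 4 of the 8 tested trophectoderm markers had an unadjusted edgeR p under 0.05 for FoEV treatment vs. Co and were higher in FoEV (KRT18, KRT8, GATA2 and GATA3), against 8.18% of all genes, with 0 at an adjusted p under 0.05. The log2 fold change of TFAP2A, of the same list, was -0.49 (SE 0.30, edgeR adjusted p = 0.444), with 3 FoEV libraries below every Co library. The epiblast factor NANOG had 91.2, 78.6, 46.4, 94.3 and 91.5 CPM in Co replicates 1 to 5 and 22.9, 50.5, 68.3, 45.7 and 37.6 CPM in FoEV replicates 1 to 5. Its log2 fold change was -0.84 (SE 0.26, edgeR adjusted p = 0.178). The study lists NANOG among its genes downregulated in FoEV-treated embryos compared with Co. With DESeq2 the adjusted p of NANOG was 0.0338, and over all other fits it ran from 0.0067 with the robust likelihood ratio test to 0.346 without Co replicate 4. Of the other tested epiblast markers, POU5F1 had a log2 fold change of 0.21 (SE 0.11, edgeR adjusted p = 0.368) and SOX2 of -0.03 (SE 0.25, edgeR adjusted p = 0.969). Of the 6 tested hypoblast markers, 2 were higher and 4 lower in FoEV, with 1 at an unadjusted edgeR p under 0.05. This was FN1, with a log2 fold change of -0.29 (SE 0.14, edgeR unadjusted p = 0.0496 and adjusted p = 0.331). PKP3, JUP, NANOG, FN1 and the 4 trophectoderm markers thus reached an unadjusted edgeR p under 0.05 in the same comparison. The part of the markers in the values of PKP3 and JUP was not tested.

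Among the genes most like DSP over the 15 libraries, by r with treatment means removed, were SNX8 (r = 0.953), ITPR3 (r = 0.944), a calcium channel of the endoplasmic reticulum, NEU1 (r = 0.923), a lysosomal sialidase, and NEDD4L (r = 0.921), a ubiquitin ligase. The genes most like the mean of the z-scored desmosome genes were AKR1B1 (r = 0.909), an aldo-keto reductase, EPS8L1 (r = 0.899), TES (r = 0.895), a focal adhesion protein, ACTB (r = 0.889), cytoplasmic actin, and LOC616199 (r = 0.886). They were picked as the highest of all genes and carry no test. Of the desmosome genes themselves, PKP2 (r = 0.896) and DSC2 (r = 0.864) were the most like that mean, of which they are a part, and DSG2 (r = -0.19) the least.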

How the data were processed

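The authors sequenced total RNA of embryo pools with a low-input kit that removes ribosomal fragments and selects strand, and deposited raw counts per gene, once for 34773 genes and once for the 10832 kept after their filter. The reads were mapped to ARS-UCD1.2. The study's methods name QuasR Qcount for counting and 8 days of culture, whereas the submitters' processing notes name Trim Galore 0.4.3.1, HISAT2 2.1.0 and featureCounts 1.6.3, and the labels 7 days. The strand setting of the counting is not given in the sources used here, so that reads of overlapping antisense genes could enter a count.

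Libraries were grouped by treatment from their titles. The replicate numbers are those of the titles, and the sample descriptions end in other numbers. For replicates 1 to 5 these were 1, 2, 4, 5 and 6 in Co, 2, 3, 4, 5 and 7 in FeEV, and 3, 4, 5, 6 and 7 in FoEV. Neither numbering is stated to mark a shared batch or day. The kept counts were scaled by TMM and fitted in 1 model over all 15 libraries with edgeR 4.0.16 in R 4.3.3 (estimateDisp, glmQLFit with robust=TRUE, glmQLFTest), with treatment as the only factor and the Benjamini-Hochberg adjustment over 10832 genes. The threshold for a call was an adjusted p of 0.05. The test of the study's methods, a likelihood ratio test with robust dispersions, was an alternative, as was DESeq2 1.42.0. Log2 CPM used a prior count of 2, and 95% intervals are the estimate ± 1.96 standard errors. Counts were unlike between all libraries of a treatment, and none was a duplicate. The floor of 3 counts allows for counting error alone, because PCR copies were not told from molecules by an identifier. Correlations used two-sided permutation tests in Python 3.11.15 with numpy 2.4.6, pandas 2.3.3 and scipy 1.17.1, and figures matplotlib 3.10.9. The fit was tested on simulated data.

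The 9 genes and the lists of partners and markers were chosen with earlier results of these data known. Named besides the 9 genes were genes of these lists with an adjusted p under 0.05 or an unadjusted p under 0.01 in any comparison, and the 5 genes most alike to DSP and to the mean of the desmosome genes, of which 1 is not reported here. Other genes were named where a count or an opposite sign needed them, after their values were seen. Neighbouring and overlapping genes come from the later assembly ARS-UCD2.0, to which 10709 of the 10832 kept genes were matched by identifier. Coordinates, sequences and transcript lengths were not used here.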

Additional observations from a re-analysis of the deposited data

Results flagged for a closer look

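In 1 of 27 groups of 5 libraries (9 desmosome genes in 3 treatments) a library stood apart by the test of Dixon, where chance gives about 1 in 20. JUP had 595 CPM in FoEV replicate 1, whereas the other FoEV libraries had 448 to 491 CPM. The log2 fold change of JUP for FoEV treatment vs. Co was 0.23 with this library and 0.16 without it (edgeR adjusted p = 0.286 and 0.526). The same library had the highest PKP3 level of all 15 libraries, 27.3 CPM.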

How the results depend on the processing

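In each comparison 0 of the 8 desmosome genes were called under each of 10 other fits and without each library in turn. DESeq2 gave no adjusted p for PKP3 for FoEV treatment vs. Co, so that fit could not have called it. The number of all genes called for FoEV treatment vs. Co ran from 1 to 311 over the fits and from 0 to 58 without 1 library. Whether the replicate numbers of the titles pair the libraries was not settled. Over all kept genes with treatment means removed, same-number correlations were -0.29 to 0.35 with a mean of 0.03 (FoEV and Co). They were -0.21 to 0.42 with a mean of 0.14 (FeEV and Co) and 0.01 to 0.44 with a mean of 0.19 (FoEV and FeEV). A library correlated best with its own number in 1, 2 and 2 of 5 pairs. This check was not made with the numbers ending the sample descriptions, which differ from those of the titles. With the replicate block 57, 0 and 0 genes were called in all, the log2 fold change of PKP3 for FoEV treatment vs. Co was 0.53 (edgeR adjusted p = 0.106) and that of JUP 0.24 (edgeR adjusted p = 0.151). At an unadjusted edgeR p under 0.05 the block gave 3 (DSC2, JUP and PKP3), 1 (DSP) and 2 (JUP and PKP3) desmosome genes in the 3 comparisons. The description number as a factor gave 1 (PKP3), 0 and 0 of them. With it 12, 0 and 1 of all genes were called at an adjusted edgeR p under 0.05.

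Under the alternatives, 575 values of single genes kept their direction and call and 25 uncalled values near 0 changed sign. Without 1 library the log2 fold changes for FoEV treatment vs. Co ran from -0.086 to 0.0014 for PKP2, from -0.15 to 0.016 for PKP4 and from -0.089 to 0.042 for PERP. For FeEV treatment vs. Co they ran from -0.23 to 0.056 for DSC2 and from -0.017 to 0.11 for JUP. For FoEV vs. FeEV treatment they ran from -0.13 to 0.096 for DSP, from -0.29 to 0.049 for DSC2, from -0.025 to 0.017 for DSG2 and from -0.049 to 0.040 for PKP2. DSP was at 0.0043 with the robust likelihood ratio test and DSG2 at 0.015 with the description number as a factor.

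For PKP3 in FoEV vs. FeEV treatment, the unadjusted edgeR p exceeded 0.05 without FeEV replicate 2, 3 or 4 or FoEV replicate 1 or 4, with thinned counts and with the description number as a factor, and its log2 fold change ran from 0.30 to 0.46 without 1 library. Without ribosomal RNA genes the summed levels were 4111, 4249 and 4251 CPM in Co, FeEV and FoEV, since the total is then smaller. Instead of 7, the pairs of desmosome genes with an adjusted permutation p under 0.05 were 4 with treatment means kept, 2 with DESeq2 size factors, 0 without the 2 farthest libraries, and 1 to 6 without 1 library. The relation to the trophectoderm markers passed in 5 genes and in 0 without KRT8, KRT18 and IFNT2, a choice made after seeing the data, as were thinning for correlations, leaving out 1 library for them and leaving out FN1. The cause was not tested. The depth limits DSC3, with 1 to 9 reads per library.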
